A study of Mus musculus with 44 samples.

Results

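The genes of the mouse mitochondrial genome were examined across cultured primary microglia and astrocytes of 4 APOE genotypes. The members were all rows of the count table whose GENCODE M21 symbol begins with mt-, which gave 37 of 54146 gene rows: 13 protein genes, 22 tRNA genes and 2 rRNA genes. This rule uses no measured value, but the members and the tests were chosen with earlier results of these data known. The 3 classes were kept apart. The libraries came from primary cells of APOE44 mice, APOE33 mice, Apoe knockout (KO) mice and Apoe wild-type (WT) mice, purified and grown in media made for human microglia and astrocytes, with no treatment. Each cell type had 6 APOE44, 6 APOE33, 4 KO and 6 WT libraries, 44 in all. The labels name the APOE genotype but no strain, no age and no construct for the APOE33 and APOE44 alleles, and do not say whether replicates were separate animals or cultures. P-values therefore measure the spread between these libraries, which may be technical. All 12 WT libraries carry batch 2 in the labels and the other 32 carry batch 1, so that a difference from WT in genotype and one in batch cannot be told apart. The comparisons below answer how the transcripts of one organelle genome differ between APOE genotypes within a cell type, and between the cell types.

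The mitochondrial genome is a small circular DNA that encodes core subunits of the respiratory chain and of ATP synthase, together with the rRNAs and tRNAs that translate them. Each strand is transcribed as a long precursor, and the tRNAs that lie between most of the other genes mark where the precursor is cut. The protein genes encode subunits of complex I (the mt-Nd genes), complex III (mt-Cytb), complex IV (mt-Co1, mt-Co2 and mt-Co3) and ATP synthase (mt-Atp6 and mt-Atp8). All other subunits of these complexes, and every protein needed to copy, transcribe and process the genome, are encoded in the nucleus.

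The deposited counts summed to between 83239599 and 143150569 per library. The mouse Apoe row averaged 12.4 ± 7.34 CPM, the counts scaled to a common library total, in KO microglia, 45.8 ± 3.52 in APOE44, 46.7 ± 10.9 in APOE33 and 43206 ± 4159 in WT microglia (SD, n = 4, 6, 6 and 6). In astrocytes it averaged 13.35 ± 1.75 CPM in KO, 29.15 ± 5.03 in APOE44, 28.4 ± 5.19 in APOE33 and 7185 ± 632 in WT libraries. All 10 microglial markers were at 1 CPM or more in the microglia of every genotype, but 9 or 10 of them were in each astrocyte group too. They summed to 11303 CPM or more in microglia and 129 to 527 CPM in astrocytes. The astrocyte markers summed to 11921 CPM or more in astrocytes and at most 104 CPM in microglia. The ependyma and choroid markers summed to 111 to 226 CPM in KO astrocytes, against 266 to 383 in APOE44 and 242 to 344 in APOE33. The part of other cells in the astrocyte results was not tested. The title and the genotype tag of 1 library disagree: APOE33 astrocyte replicate 1 is titled APOE33 and tagged WT, and it was used as APOE33. Most small counts in the table were even. In 6 batch 1 libraries the share of odd values among counts of 1 to 9 was 21.3% to 26.4%, against 31.2% to 37.6% in the other 26. These 6 were APOE44 astrocyte replicates 1, 5 and 6, APOE33 astrocyte replicates 4 and 6, and APOE33 microglia replicate 3. They also had less small nuclear and nucleolar RNA, at 0.0323% to 0.103% of counts against 0.207% to 0.751%. Class shares and the shares of the mt-Nd3 pair are also given without them. So are counts of called members, except for APOE44 against APOE33 astrocytes.

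The 37 genes lie end to end on chrM (GRCm38), and they differ in strand, in overlap with each other and in how much of their sequence also occurs elsewhere. Of the 13 protein genes, 12 are on the plus strand and mt-Nd6 is on the minus strand. The tRNA genes are 59 to 75 bases long, with 14 on the plus strand and 8 on the minus strand. Protein genes overlap at 4 places: mt-Atp8 and mt-Atp6 share 43 bases, mt-Atp6 and mt-Co3 share 1, mt-Nd4l and mt-Nd4 share 7, and mt-Nd5 and mt-Nd6, on opposite strands, share 14. How the authors' counting treated reads over such bases, and whether it used strand, is not given in the sources used here. The last 100 bases of mt-Atp8 (chrM:7870-7969, plus strand) are shown because the capitals, which are also the first bases of mt-Atp6, cannot be assigned to 1 gene.
mt-Atp8, end: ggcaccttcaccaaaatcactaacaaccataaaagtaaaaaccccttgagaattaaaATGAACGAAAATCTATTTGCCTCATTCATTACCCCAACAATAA

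Stretches of the mouse nuclear genome are copies of mitochondrial DNA, and 11 annotated nuclear genes matched a mitochondrial protein gene over at least 100 bases at 95% identity or more. Of these copies 7 sit in a row on chromosome 1 (chr1:24611535-24616197, minus strand) and match mt-Co1, mt-Co2, mt-Atp6, mt-Co3, mt-Nd3, mt-Nd4l and mt-Nd4. Windows of 150 bases, the length of 1 read, were used to count how much of each gene is found exactly in another annotated transcript. Nuclear sequence outside annotated transcripts was not searched. The share was 99.4% for mt-Co2, 99.4% for mt-Atp6, 99.8% for mt-Co3, 97.0% for mt-Nd3, 98.0% for mt-Nd4l, 59.2% for mt-Nd4 and 23.6% for mt-Co1, and 0% for mt-Atp8 and the other protein genes. A read from such a window cannot be placed by its own sequence. Reads were paired, and whether the other read of a pair could place it was not tested. The authors' handling of such reads is not given in the sources used here. mt-Nd3 is 348 bases long, and its copy Gm28438 (chr1:24612775-24613119, minus strand) holds 345 of them without the last 3. Over those 345 bases they differ at 1 base, T3C, counted from 1 at the 5′ end of each gene. The first 60 bases of each are shown because the capital is the base that differs (mt-Nd3 at chrM:9459-9518, plus strand, and Gm28438 at chr1:24613060-24613119, minus strand, from GENCODE M21 transcripts).
mt-Nd3: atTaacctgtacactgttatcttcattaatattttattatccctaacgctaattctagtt
Gm28438: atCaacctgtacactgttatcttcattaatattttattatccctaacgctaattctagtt

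A tRNA is shorter than a read, and most tRNA genes were hardly counted. No library had a count for 5 of the 22 (mt-Tv, mt-Tq, mt-Td, mt-Tk and mt-Tr); a count of 0 allows up to 0.0210 to 0.0360 CPM per library at 3 counts, which covers counting error only. Only mt-Tp, mt-Tn and mt-Tc, which carry proline, asparagine and cysteine, reached a mean of 0.1 CPM over the 44 libraries, at 19.5, 0.662 and 0.592 CPM. The next were mt-Te with 0.0452 CPM, mt-Tl1 with 0.00864 CPM and mt-Tf with 0.00557 CPM. The 3 that reached 0.1 CPM are all on the minus strand, and their sequences are shown as the tRNA genes behind the class totals: mt-Tp at chrM:15356-15422, mt-Tn at chrM:5089-5159 and mt-Tc at chrM:5192-5257.
mt-Tp: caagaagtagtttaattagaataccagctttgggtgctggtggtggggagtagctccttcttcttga
mt-Tn: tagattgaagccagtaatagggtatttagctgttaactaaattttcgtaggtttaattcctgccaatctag
mt-Tc: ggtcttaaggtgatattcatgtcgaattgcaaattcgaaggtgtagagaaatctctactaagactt

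Levels per length, in CPM per kilobase, put the protein genes into a high and a low set in both cell types. mt-Co1, which encodes the catalytic core of cytochrome c oxidase, had 4573 ± 665 CPM per kb in microglia and 7546 ± 643 in astrocytes (SD, n = 22 libraries each). mt-Cytb, the subunit of complex III that this genome encodes, had 1172 ± 241 CPM per kb in microglia and 4475 ± 292 in astrocytes. Of the complex I genes, mt-Nd1 had 1115 ± 186 in microglia and 2261 ± 154 in astrocytes, and mt-Nd4, the lowest of the high set, had 462 ± 87.5 in microglia and 1644 ± 163 in astrocytes. mt-Nd2, mt-Nd5 and mt-Nd6 lay between mt-Cytb and mt-Nd4 in both cell types. The order below mt-Co1 was not the same in both. Several neighbours in the order differed by less than the SD over libraries of either gene. In microglia these were mt-Cytb and mt-Nd1, mt-Nd5 and mt-Nd2, and mt-Nd2 and mt-Nd6. In astrocytes they were mt-Nd2 and mt-Nd1, and mt-Nd6 and mt-Nd4.

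The other 6 protein genes were far lower. mt-Co2, a subunit of cytochrome c oxidase, had 5.89 ± 4.98 CPM per kb in microglia and 13.9 ± 8.16 in astrocytes, and mt-Nd3, a complex I subunit and the lowest, had 1.21 in microglia and 5.29 in astrocytes. mt-Atp8, mt-Atp6, mt-Co3 and mt-Nd4l lay between mt-Co2 and mt-Nd3 in both cell types. Together these 6 made up 0.0351% to 0.254% of the counts of the 13 protein genes in microglia and 0.0437% to 0.202% in astrocytes. They are the 5 genes with 97.0% or more of their windows shared with another annotated transcript and mt-Atp8, which shares no whole window. The last 43 bases of mt-Atp8 are also the first of mt-Atp6, which the nuclear copy of mt-Atp6 holds unchanged. mt-Atp8 lies between mt-Co2 and mt-Atp6, whose copies are neighbours on chromosome 1. The nuclear bases between those copies were not searched, so the share for mt-Atp8 does not show that its reads can be placed. The part of read placement in their levels was not tested. Because so few of their reads were counted, a change of these genes is a change in a small remainder, and it is given apart from that of the 7 high genes. The rRNA genes had mean levels below those of all 7 in both cell types: mt-Rnr2, the large rRNA, had 442 ± 270 CPM per kb in microglia and 588 ± 75.1 in astrocytes, and mt-Rnr1, the small rRNA, had 204 ± 127 in microglia and 350 ± 89.3 in astrocytes. mt-Tp stood far above the other tRNA genes, at 283 ± 75.2 CPM per kb in microglia and 300 ± 102 in astrocytes.

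**Figure D1:**
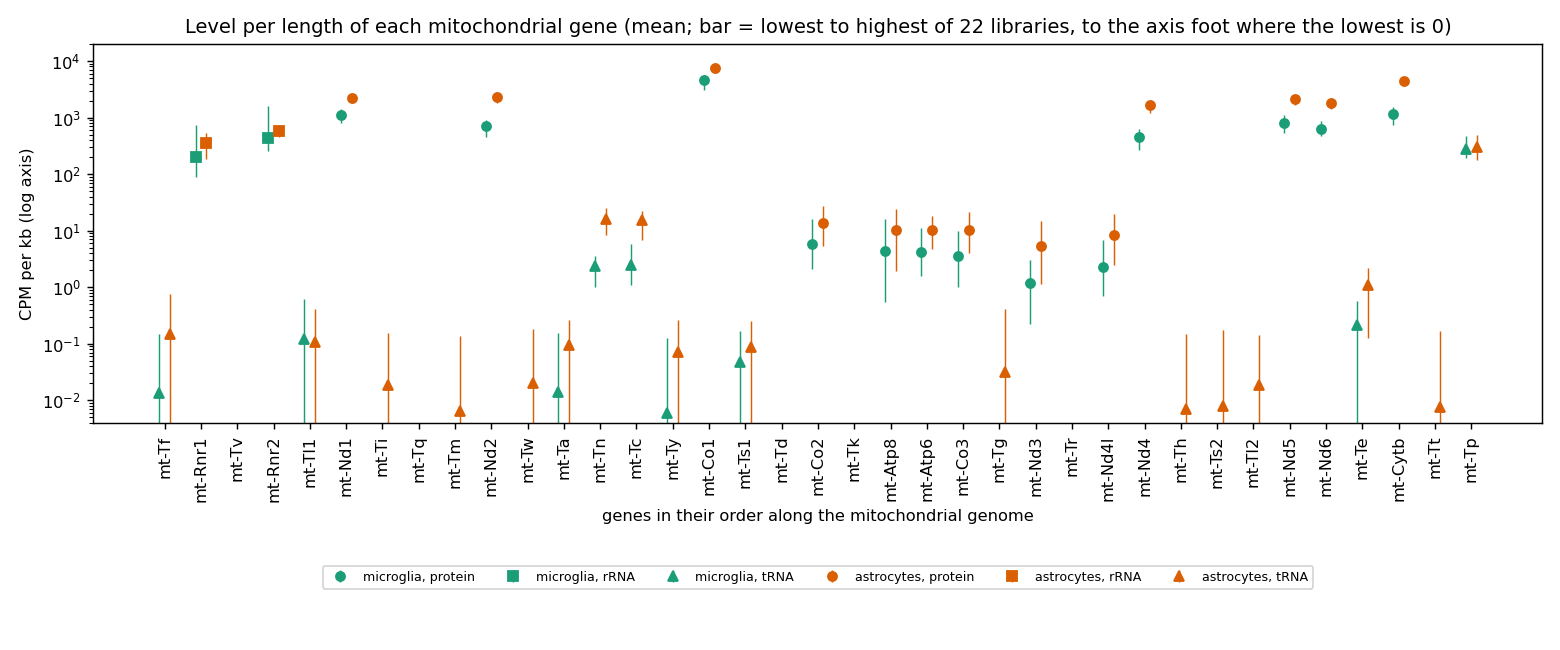
Level per length (CPM per kb, log axis) of the mitochondrial genes in genome order, with the mean of 22 libraries per cell type as the point and the lowest to highest library as the bar. mt-Co2, mt-Atp8, mt-Atp6, mt-Co3, mt-Nd3 and mt-Nd4l lie between 1.21 and 13.9 CPM per kb, against 462 or more for the other 7 protein genes.

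Within the protein class, mt-Co1 made up 55.9% of the counts in microglia and 41.0% in astrocytes, and mt-Cytb 10.6% in microglia and 18.1% in astrocytes. The 13 protein genes as a class took 1.51% ± 0.0661 of all counts in APOE44 microglia, 1.16% ± 0.181 in APOE33, 1.18% ± 0.0739 in KO and 1.19% ± 0.115 in WT microglia (SD, n = 6, 6, 4 and 6). The lowest APOE44 microglia library, at 1.42%, was above the highest library of each other microglial genotype, which were 1.31% in APOE33, 1.27% in KO and 1.30% in WT. Without APOE33 replicate 3, APOE33 microglia averaged 1.22% ± 0.112. In astrocytes the class took 2.71% ± 0.238 in APOE44, 2.75% ± 0.148 in APOE33, 3.09% ± 0.111 in KO and 2.89% ± 0.130 in WT libraries (SD, n = 6, 6, 4 and 6), and APOE44 and APOE33 overlapped. Without the 5 astrocyte libraries that stand apart, APOE44 astrocytes averaged 2.84% ± 0.148 (n = 3) and APOE33 astrocytes 2.75% ± 0.0350 (n = 4). In bulk RNA, fewer mitochondria-rich cells and less mitochondrial RNA per cell cannot be told apart.

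The rRNA genes took a smaller share of counts, in the order KO below APOE33 below APOE44 by mean in microglia. Their share was 0.0886% ± 0.00763 in APOE44, 0.0710% ± 0.0110 in APOE33 and 0.0594% ± 0.00284 in KO microglia, and its median in WT microglia was 0.0941%, with 1 WT library at 0.323%. In astrocytes the share was 0.128% ± 0.0195 in APOE44, 0.129% ± 0.0214 in APOE33, 0.116% ± 0.0109 in KO and 0.130% ± 0.0086 in WT libraries. The genotypes other than KO differed by less than their SDs there. The rRNA share without the 6 libraries was 0.0742% in APOE33 microglia, 0.143% in APOE44 astrocytes and 0.137% in APOE33 astrocytes. Per 1000 counts of the protein genes, the rRNA genes had 58.5 ± 3.92 in APOE44, 61.8 ± 7.89 in APOE33 and 50.5 ± 1.25 in KO microglia, so the ratio of the classes differed less than their levels between APOE44 and APOE33. The 22 tRNA genes together took 0.00176% ± 0.000265 of counts in APOE44, 0.00161% ± 0.00011 in APOE33, 0.00166% ± 0.000163 in KO and 0.00261% ± 0.000482 in WT microglia. In astrocytes the mean was 0.00182% in APOE44, 0.00178% in APOE33 and 0.00194% in KO libraries, against 0.00331% ± 0.000187 in WT libraries. The astrocyte means without the 6 libraries were 0.00171% in APOE44 and 0.00158% in APOE33.

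**Figure D2:**
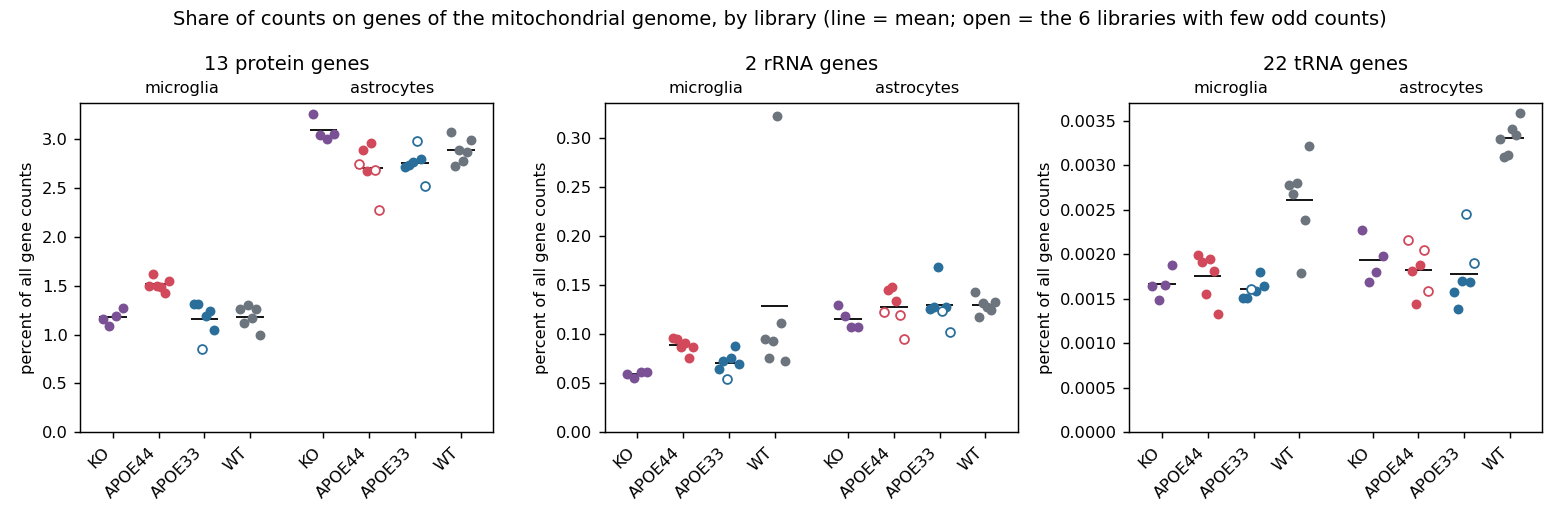
Share of all counts (percent) taken by the 13 protein, 2 rRNA and 22 tRNA genes in each library, with points as libraries, lines as means and open points as the 6 libraries with few odd counts. The 6 APOE44 microglia sit between 1.42% and 1.62% in the protein class, above every other microglia library, while APOE44 and APOE33 astrocytes overlap.

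APOE44 microglia had more mitochondrial protein transcripts than APOE33 microglia, across complexes I, III and IV. All 7 high protein genes rose, by 0.40 to 0.48 on the log2 scale, and so did mt-Rnr2, while no member fell. In total 8 of the 18 members with enough counts to test were called, that is, had an adjusted p under 0.05, against 0.840% of 17143 genes tested in either direction and 0.379% upward. The median log2 difference was 0.23 over the 18 members and 0.00 over all genes tested. The 6 low protein genes had a median of -0.14 and none was called.

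The values by library show no overlap for the 7. The 6 APOE44 microglia had 1186, 1283 and 1373 CPM of mt-Nd1 (lowest, median and highest), against 775, 962 and 1086 CPM in the 6 APOE33 microglia. mt-Cytb had 1541, 1625 and 1783 CPM in APOE44 microglia, against 936, 1280 and 1510 CPM in APOE33 microglia. mt-Co1 had 7708, 8308 and 8782 CPM in APOE44 microglia, against 4719, 6826 and 7308 CPM in APOE33 microglia. For each of the 7, including these, the lowest APOE44 library was above the highest APOE33 library; over all genes tested this held for 0.490%. mt-Rnr2 did overlap, at 601, 685 and 738 CPM in APOE44 microglia against 460, 541 and 665 CPM in APOE33 microglia.

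The log2 differences, APOE44 over APOE33, came from edgeR's quasi-likelihood test with Benjamini-Hochberg adjustment over all genes. mt-Nd1, a complex I subunit in the membrane arm, differed by 0.48 (SE 0.07, adjusted p = 0.00226), and mt-Cytb by 0.43 (SE 0.07, adjusted p = 0.00548). mt-Co1 differed by 0.41 (SE 0.07, adjusted p = 0.00548), a linear fold of 1.33. Of the other complex I genes, mt-Nd2 differed by 0.47, mt-Nd4 by 0.47, mt-Nd5 by 0.44 and mt-Nd6, from the other strand, by 0.40, with adjusted p-values of 0.00725 to 0.0272 by the same test. mt-Rnr2 differed by 0.34 (SE 0.07, edgeR adjusted p = 0.0412), and mt-Rnr1, by 0.35 with a larger SE of 0.16, was not called (edgeR adjusted p = 0.389). Genes annotated on both strands and in different complexes had similar differences. Whether the counting used strand is not given, so the mt-Nd6 counts are not known to come from its own strand.

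Without APOE33 microglia replicate 3, the only microglia library among the 6 that stand apart, the 7 protein genes remained called by edgeR, with differences of 0.34 to 0.46, and mt-Rnr2 was not (0.31, edgeR adjusted p = 0.129). mt-Nd4 lost its call in 6 of the 12 fits that each left out 1 library, and mt-Rnr2 in 10. Without sex as a covariate 5 of the 18 were called, and the median over the 18 was 0.21. The summed astrocyte markers ran from 32.7 to 77.6 CPM in APOE44 and 26.8 to 77.6 CPM in APOE33 microglia, against 11921 or more in astrocytes. Oligodendrocyte lineage markers summed to 227 to 302 CPM in APOE44 and 167 to 266 in APOE33 microglia. Mural and fibroblast markers summed to 104 to 148 and 61.7 to 126 CPM, and microglial markers to 16339 to 19408 and 16794 to 19436 CPM. The part of the mix of cells in this result was not tested. When libraries were scaled to the 13 protein genes, which sets their sum equal by construction, mt-Co1, mt-Nd6 and mt-Rnr2 changed sign and the median of all genes was -0.44.

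No nuclear partner gene moved with them past the test. Of 82 nuclear genes for subunits of oxidative phosphorylation, 80 were tested in microglia, 0 were called in APOE44 against APOE33 by edgeR and 2 were at an unadjusted p under 0.05; their median log2 difference was -0.01. Of 57 nuclear genes for the copying, transcription, processing and modification of the mitochondrial genome, 54 were tested, 0 were called by edgeR and 5 were at an unadjusted p under 0.05, with a median of 0.00. Of the 11 nuclear copies, 0 were called.

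In astrocytes the same genotypes showed no called member. Of 18 members, 0 were called by edgeR in APOE44 against APOE33 astrocytes and 0 were at an unadjusted p under 0.05, against 0.703% of 20481 genes called. The 7 high protein genes had log2 differences of -0.10 to 0.03, with a median of -0.05. These groups hold 5 of the 6 libraries that stand apart. The mean protein class share was 2.71% in APOE44 and 2.75% in APOE33 astrocytes with them. Without them it was 2.84% in APOE44 (n = 3) and 2.75% in APOE33 (n = 4), so the order of the means depends on these libraries. mt-Nd1 had 1726, 2102 and 2312 CPM in the 6 APOE44 astrocytes, against 2025, 2134 and 2382 CPM in the 6 APOE33 astrocytes, and the groups overlapped. DESeq2 called 0 of the 18 too.

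The difference between the cell types was itself tested, as microglia minus astrocytes in the log2 difference of APOE44 over APOE33. It passed for 4 of the 18 members, against 0.296% of 21647 genes tested and 0.152% in the same direction. The values were 0.55 for mt-Nd1 (SE 0.10, edgeR adjusted p = 0.012), 0.57 for mt-Nd2 (SE 0.11, adjusted p = 0.0163), 0.56 for mt-Nd4 (SE 0.13, adjusted p = 0.0427) and 0.47 for mt-Cytb (SE 0.10, adjusted p = 0.0279). mt-Co1 had 0.39, mt-Nd5 0.41 and mt-Nd6 0.46, and they were not called (edgeR adjusted p = 0.0606, 0.0901 and 0.105). Without the 6 libraries that stand apart, of which 5 are astrocytes, 0 members were called: mt-Nd1 had 0.44, mt-Nd2 0.43, mt-Nd4 0.37 and mt-Cytb 0.35, with edgeR adjusted p-values of 0.174 to 0.209. With those libraries kept and a term added for them, 4 members were called, so the call changes with how they are treated. Of the 32 fits that each left out 1 batch 1 library, mt-Nd1 and mt-Nd2 lost their call in 0, mt-Cytb in 5 and mt-Nd4 in 23. The count was 2 without APOE44 microglia replicate 1 or 2, APOE33 microglia replicate 3, APOE44 astrocyte replicate 6 or APOE33 astrocyte replicate 3, and 7 without APOE33 microglia replicate 2.

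**Figure D3:**
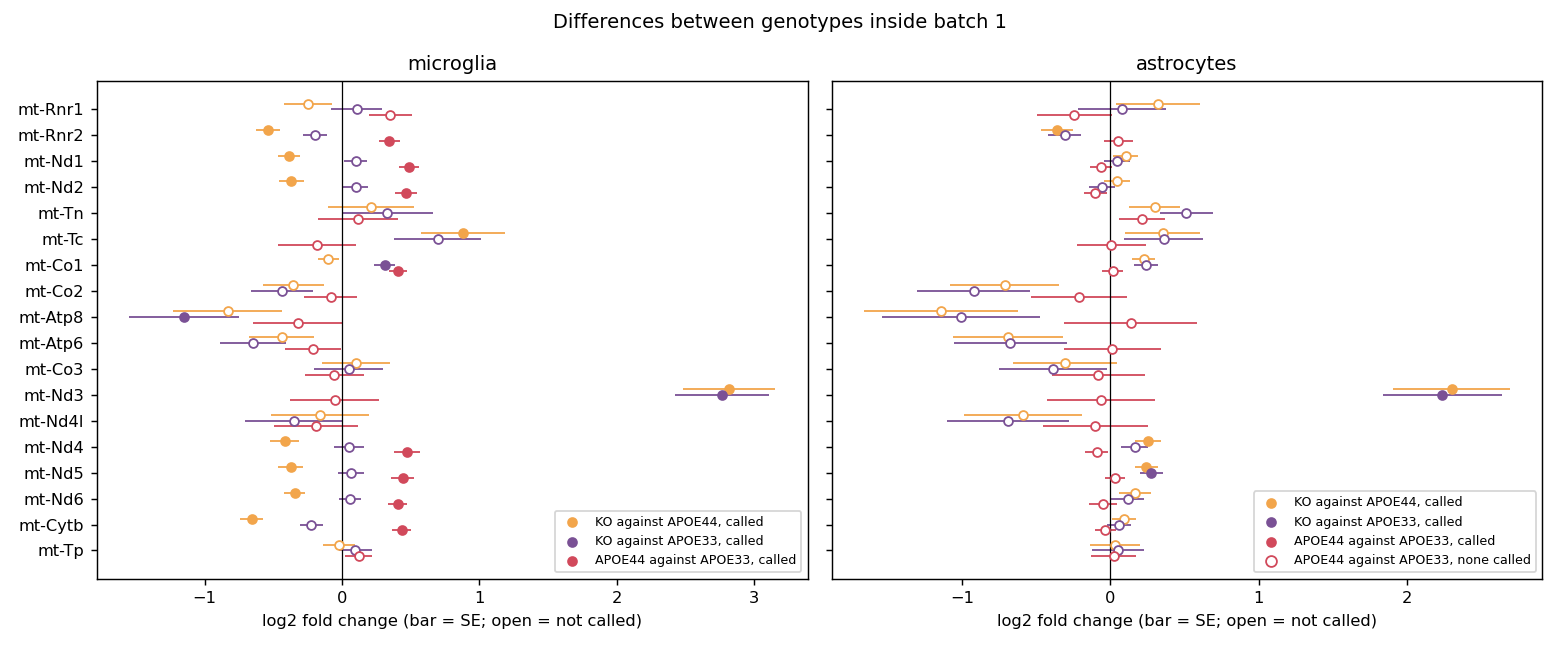
Log2 fold change with its SE (edgeR) of the 18 tested members in KO against APOE44, KO against APOE33 and APOE44 against APOE33, for microglia and astrocytes; filled points were called at an adjusted p under 0.05 and open points were not. mt-Nd3 stands alone in the KO comparisons at 2.24 to 2.82, and the 7 high protein genes lie at 0.40 to 0.48 in APOE44 against APOE33 microglia.

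KO cells had more counts of 1 mitochondrial gene, mt-Nd3, in both cell types. The KO comparisons share their KO libraries, and the APOE33 and APOE44 libraries also enter the comparison above, so each is given on its own. In KO against APOE33 microglia 3 of 18 members were called, against 22.7% of 17143 genes: mt-Nd3 and mt-Co1 were higher and mt-Atp8 lower. In KO against APOE33 astrocytes 2 of 18 were called, against 17.2% of 20481 genes: mt-Nd3 and mt-Nd5 were higher, and 8.37% of all genes were. These shares of members, in either direction, are below the background, so mt-Nd3 is described as a single gene. Without the 6 libraries that stand apart, 4 members were called in microglia (mt-Nd3, mt-Co1 at 0.23 and mt-Tc at 0.98 higher, mt-Cytb at -0.30 lower) and 3 in astrocytes (mt-Nd3, mt-Nd5 at 0.28 and mt-Nd6 at 0.27, all higher).

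mt-Nd3 had 0.888, 1.02, 1.00 and 1.06 CPM in the 4 KO microglia, against 0.103, 0.114 and 0.257 CPM (lowest, median and highest) in APOE44 and 0.0787, 0.0994 and 0.290 CPM in APOE33 microglia. In astrocytes it had 5.08, 4.54, 3.87 and 4.24 CPM in the 4 KO libraries, against 0.400, 0.790 and 1.41 CPM in APOE44 and 0.401, 0.719 and 1.47 CPM in APOE33. Every KO library was above every APOE44 and APOE33 library of its cell type. Against APOE33 this held for 1075 of 17143 genes tested in microglia and 1557 of 20481 in astrocytes. Against APOE44 it held for 1425 in microglia and 2223 in astrocytes. The log2 difference of mt-Nd3 in KO over APOE33 was 2.76 in microglia (SE 0.34, edgeR adjusted p = 5.28e-05) and 2.24 in astrocytes (SE 0.40, edgeR adjusted p = 0.00244). KO over APOE44 gave 2.82 in microglia (SE 0.34, edgeR adjusted p = 2.97e-05) and 2.30 in astrocytes (edgeR adjusted p = 0.001). Without the 6 libraries, KO over APOE33 was 3.23 in microglia and 2.84 in astrocytes. mt-Nd3 encodes a small complex I subunit, and its CPM stayed below that of each of the 7 high protein genes in every KO library.

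Its nuclear copy Gm28438, which differs from it at the base shown above, moved the other way. Gm28438 had 1.18, 1.24, 1.16 and 1.44 CPM in the 4 KO microglia, against 4.41, 4.82 and 5.30 CPM (lowest, median and highest) in APOE44 and 2.74, 4.83 and 5.22 CPM in APOE33 microglia. In astrocytes it had 3.77, 3.67, 4.24 and 3.58 CPM in KO, against 9.77, 14.1 and 15.9 CPM in APOE44 and 11.0, 13.7 and 14.4 CPM in APOE33. The groups did not overlap in either cell type. In KO against APOE33, 2150 of 17143 genes tested in microglia and 1256 of 20481 in astrocytes were lower without overlap. Against APOE44 it was 2807 in microglia and 2000 in astrocytes. For Gm28438, KO over APOE33 was -1.66 in microglia (SE 0.14, edgeR adjusted p = 2.22e-06) and -1.80 in astrocytes (SE 0.13, edgeR adjusted p = 1.3e-06). As a share of the counts of the pair, mt-Nd3 took 44.2% ± 1.87 in KO, 2.81% ± 1.34 in APOE44, 3.36% ± 3.09 in APOE33 and 10.3% ± 1.90 in WT microglia. In astrocytes it took 53.7% ± 4.20 in KO, 6.21% ± 3.80 in APOE44, 6.13% ± 3.32 in APOE33 and 12.8% ± 2.04 in WT libraries (SD, n = 4, 6, 6 and 6 in each cell type). With the 6 libraries left out it took 2.12% ± 0.653 in APOE33 microglia, 2.96% ± 0.431 in APOE44 astrocytes and 4.11% ± 1.28 in APOE33 astrocytes. The sum of the pair was lower in KO, at 2.24 ± 0.183 CPM against 4.61 ± 0.856 in APOE33 microglia and 8.25 ± 0.436 CPM against 14.1 ± 1.23 in APOE33 astrocytes. A rise of mt-Nd3 transcripts and a different split of reads within the pair cannot be told apart in these counts. The base that the mice of each genotype carry at the position of T3C was not determined, and the labels give no strain. Of the 11 copies, 3 were lower and 0 higher in KO against APOE33 microglia, and 2 were lower and 0 higher in astrocytes, counts that are near the 22.7% and 17.2% of all genes called in microglia and astrocytes.

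**Figure D4:**
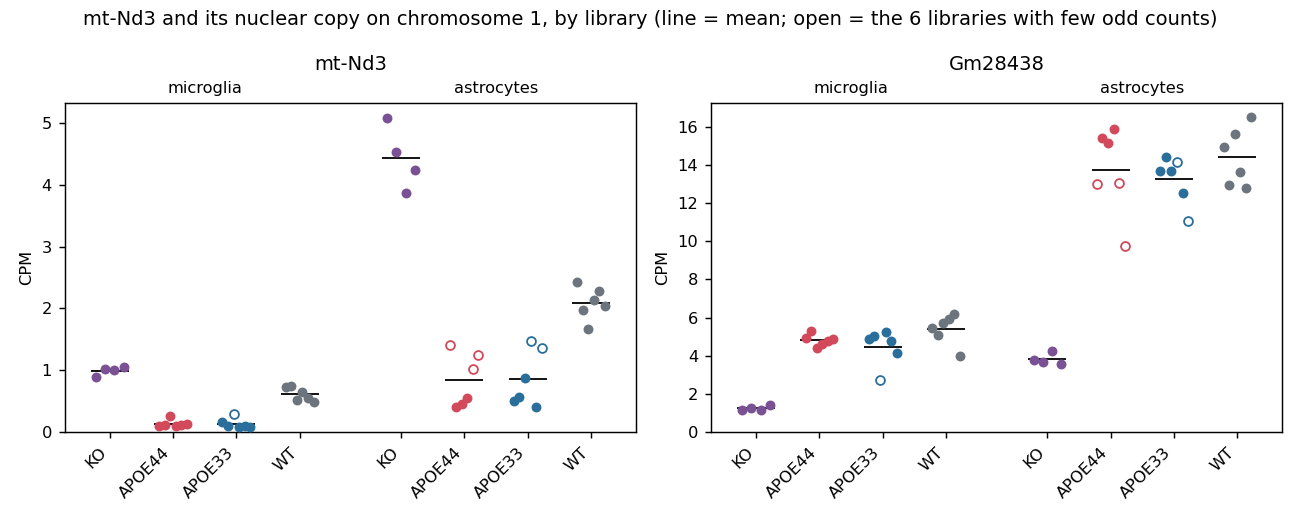
CPM of mt-Nd3 and of its nuclear copy Gm28438 in each library, by genotype and cell type. KO libraries are the highest of batch 1 for mt-Nd3 (0.888 to 1.06 CPM in microglia) and the lowest for Gm28438 (1.16 to 1.44 CPM in microglia).

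The other KO calls against APOE33 were mt-Co1 and mt-Atp8 in microglia and mt-Nd5 in astrocytes. mt-Co1 had 6801, 7142 and 7483 CPM in KO microglia (lowest, median and highest), against 4719, 6826 and 7308 CPM in APOE33, and the groups overlapped; the log2 difference was 0.31 (SE 0.08, edgeR adjusted p = 0.00969). mt-Atp8, an ATP synthase subunit, differed by -1.15 (SE 0.40, edgeR adjusted p = 0.0487), lost its call in 8 of 10 fits that each left out 1 library, and was -0.45 without APOE33 replicate 3 (edgeR adjusted p = 0.372). In astrocytes mt-Nd5, a complex I subunit, had 4613, 4270, 4183 and 4490 CPM in KO libraries, against 3358, 3623 and 3732 CPM in APOE33. These did not overlap, and the difference was 0.28 (SE 0.08, edgeR adjusted p = 0.0255), lost in 3 of the 10 fits that left out a library. mt-Co1 also did not overlap in astrocytes, at 13045, 13110 and 13243 CPM in KO against 10089, 10983 and 11926 CPM in APOE33, and did not pass the test (0.24, edgeR adjusted p = 0.0583). Of 20481 genes tested there, 1557 were higher in KO without overlap, among them 4 of the 18 members.

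Against APOE44, KO microglia had lower levels of most of the high protein genes. Here 9 of 18 members were called, against 26.9% of 17143 genes: mt-Nd3 and mt-Tc higher, and mt-Cytb, mt-Nd1, mt-Nd2, mt-Nd4, mt-Nd5, mt-Nd6 and mt-Rnr2 lower, against 13.4% of all genes lower. mt-Cytb had the largest difference of the members called lower, -0.66 (edgeR adjusted p = 4.1e-05), with 849, 961 and 1069 CPM in KO microglia against 1541, 1625 and 1783 CPM in APOE44. mt-Rnr2 differed by -0.54 (edgeR adjusted p = 0.000274) and the 5 mt-Nd genes by -0.34 to -0.42. mt-Co1 had -0.10 and was not called (edgeR adjusted p = 0.366). mt-Tc, at 0.214, 0.121, 0.164 and 0.197 CPM in KO microglia, differed by 0.88 (SE 0.31, edgeR adjusted p = 0.0439) and lost its call in 8 of 10 fits without 1 library. Summed markers of several cell types also had different ranges in these microglia. The summed border macrophage markers (4 of 6 at 1 CPM or more in KO) ran from 1364 to 1554 CPM in KO, against 971 to 1252 CPM in APOE44 and 891 to 1312 CPM in APOE33 microglia. The microglial markers summed to 14700 to 15528 CPM in KO, 16339 to 19408 in APOE44 and 16794 to 19436 in APOE33, and the oligodendrocyte lineage markers to 139 to 169 CPM in KO, 227 to 302 in APOE44 and 167 to 266 in APOE33. The mural and fibroblast markers, of which 5 of 7 were under 0.1 CPM, summed to 30.2 to 62.7 CPM in KO, 104 to 148 in APOE44 and 61.7 to 126 in APOE33, and the astrocyte markers to 73.5 to 104 CPM in KO. Their part in the KO results was not tested. In astrocytes 4 of 18 were called, against 22.7%: mt-Nd3, mt-Nd4 (0.25, edgeR adjusted p = 0.045) and mt-Nd5 (0.24, edgeR adjusted p = 0.0306) higher and mt-Rnr2 (-0.36, edgeR adjusted p = 0.0241) lower. Leaving out KO astrocyte replicate 4 brought this count to 1, and leaving out APOE44 replicates 3 or 5 or KO replicates 1, 2 or 3 brought it to 2. mt-Nd4 lost its call in 7 of 10 such fits, mt-Nd5 in 5 and mt-Rnr2 in 2. When the 6 libraries were left out, 10 of 18 were called in microglia and 2 of 19 in astrocytes. KO replicate 1 is the only female KO library in each cell type.

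The KO effect, over APOE33, did not differ between the cell types past the test for any member: 0 of 18 were called by edgeR, against 12.7% of 21647 genes, 0 were called by DESeq2, and 1, mt-Cytb, was at an unadjusted p under 0.05 (-0.29, edgeR adjusted p = 0.0951). Without the 6 libraries mt-Cytb had -0.40 and was called (edgeR adjusted p = 0.0117), as it was without KO microglia replicate 4, APOE33 microglia replicate 3 or APOE44 astrocyte replicate 6 alone.

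Nuclear genes of the same organelle were also set against the background. Of 80 nuclear oxidative phosphorylation genes tested in microglia, 15 were higher and 3 lower in KO against APOE33, with a median of 0.07, against 10.9% of all genes higher and 11.9% lower; the count in either direction is near the background of 22.7%. Of 80 in astrocytes, 2 were higher and 29 lower, with a median of -0.17, against 8.37% of all genes higher and 8.83% lower. Of the nuclear genes for mitochondrial gene expression, 5 of 54 were higher and 9 lower in microglia, and 5 of 55 higher and 2 lower in astrocytes. In either direction these counts are near the 22.7% of all genes called in microglia and below the 17.2% in astrocytes. The genes named next had the smallest adjusted p-values of this list and are described as single genes. Hsd17b10, a subunit of the enzyme that cuts tRNA 5′ ends from the precursor, averaged 28.6 ± 0.686 CPM in KO microglia and 25.2 ± 0.253 CPM in APOE33 microglia (SD, n = 4 and 6), a log2 difference of 0.26 (edgeR adjusted p = 0.000449). Nrf1, a transcription factor for nuclear genes of mitochondria, was lower by edgeR (-0.26, adjusted p = 0.00059), and Twnk, the mitochondrial DNA helicase, was lower (-0.34, edgeR adjusted p = 0.00329). Ptcd1 and Trit1, which act in mitochondrial RNA and tRNA processing, were lower by 0.30 and 0.25 on the log2 scale in KO microglia. Cdk5rap1, which modifies mitochondrial tRNAs, had 5.69, 6.51 and 7.38 CPM in KO microglia (lowest, median and highest), against 6.32, 14.7 and 16.1 CPM in APOE33, a difference of -1.10 (edgeR adjusted p = 0.00252). It also fell in KO astrocytes (-0.66, edgeR adjusted p = 0.00357). Pnpt1, which degrades and imports RNA in mitochondria, was higher in KO astrocytes, at 48.3 ± 4.02 CPM against 40.9 ± 3.78 CPM in APOE33 (SD, n = 4 and 6), by 0.30 (edgeR adjusted p = 0.00162). Tk2, Pprc1, Primpol and Fastkd1 were higher there by 0.23 to 0.36 on the log2 scale.

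Against WT, where batch changes with genotype, the 6 low protein genes were lower in APOE44, APOE33 and KO cells of both types, except mt-Nd3 in KO. In microglia 14 of 18 members were called in APOE44 against WT (45.4% of 18079 genes), 11 in APOE33 against WT (44.8%) and 10 in KO against WT (42.4%). The 6 low genes had a median log2 difference of -2.20, -2.10 and -2.30 in these comparisons, and in astrocytes of -1.36, -1.28 and -1.85 for APOE44, APOE33 and KO against WT. mt-Co2 had 1.42, 1.64 and 1.77 CPM in KO microglia (lowest, median and highest), against 7.21, 9.47 and 11.0 CPM in WT microglia. In KO against WT, mt-Nd3 was higher in astrocytes (1.06) and had 0.68 in microglia (edgeR adjusted p = 0.0707). The high protein genes did not move with them: in APOE44 against WT microglia mt-Nd5 was higher by 0.58, and mt-Nd6, mt-Co1, mt-Nd4, mt-Cytb and mt-Nd1 were higher by 0.24 to 0.49. In APOE33 against WT microglia mt-Nd1 (-0.25) and mt-Nd2 (-0.36) were lower, and in KO against WT mt-Co1 was higher (0.27) and mt-Nd2 (-0.28) and mt-Cytb (-0.39) lower. mt-Rnr2 had -0.95 in APOE33 and -1.04 in KO against WT microglia, and -0.47 and -0.67 without WT replicate 4, the library with 0.323% rRNA gene counts. mt-Tp was lower than WT by 0.57 to 0.68 in microglia and by 0.82 to 0.88 in astrocytes on the log2 scale. In astrocytes 9 of 19 members were called in each of the 3 comparisons, against 41.7%, 39.0% and 38.3% of 21287 genes. The counts without the 6 libraries, for APOE44, APOE33 and KO against WT, were 14, 12 and 11 in microglia and 9, 10 and 11 in astrocytes.

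The summed CPM of the 11 nuclear copies was high in the same WT libraries and in the libraries that stand apart. It was 56.6 CPM in APOE33 microglia replicate 3 and 103 to 146 in the other 5 of the 6 libraries, which are astrocytes. The other batch 1 libraries had at most 29.0 CPM in microglia and 35.1 to 71.9 in astrocytes, and the WT libraries had 69.4 to 115 in microglia and 158 to 185 in astrocytes. Gm13340, a full-length copy of mt-Co1, had 25.0 CPM in APOE33 microglia replicate 3, against a median of 7.12 in that group and 34.5 in WT microglia. Gm29216, a copy of the end of mt-Co1, had 7.16 CPM in the same library, against a median of 2.98 in its group. Gm13341, a copy of mt-Co2, had 5.75 CPM there, against a group median of 1.43. The share of odd counts that marks the 6 libraries was also low in WT microglia (27.4% to 29.9%). WT astrocytes, with the highest copy levels, had 31.8% to 34.1%. The other mark of the 6, the share of small nuclear RNA and nuclear rRNA genes, was 0.0429% to 0.0593% in WT astrocytes. In WT microglia its median was 0.0441%, with replicate 4 at 1.04%. It was 0.0323% to 0.103% in the 6 and 0.207% to 0.751% in the other 26 batch 1 libraries. The part of library preparation or read placement in the low genes was not tested.

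**Figure D5:**
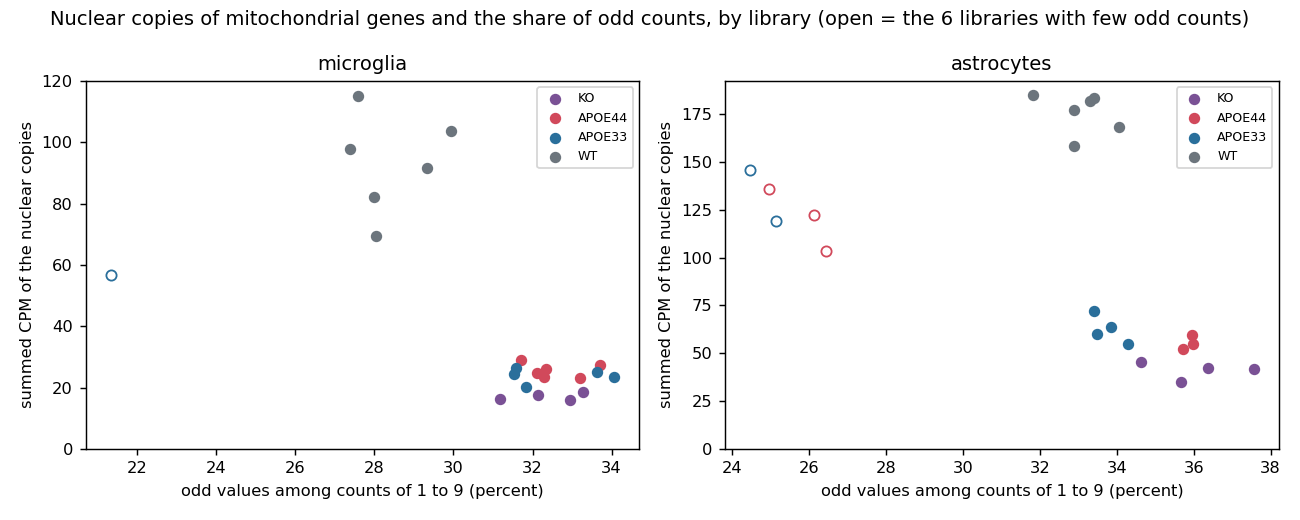
Summed CPM of the 11 annotated nuclear copies against the share of odd values among counts of 1 to 9 (percent), 1 point per library, by cell type and genotype. The 6 libraries below 28% odd in batch 1 have the highest copy levels of their cell type and batch, at 56.6 CPM in microglia and 103 to 146 CPM in astrocytes.

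Microglia had lower levels of 17 of the 18 tested mitochondrial genes than astrocytes in the same batch. In batch 1 all 18 were called by edgeR, also without the 6 libraries, 17 lower and 1, mt-Tp, higher, against 90.9% of 21647 genes called and 50.6% lower. The median log2 difference was -0.99 over the 7 high protein genes and -0.25 over all genes. mt-Cytb differed by -1.52, mt-Nd4 by -1.34, mt-Nd2 by -1.24, mt-Nd6 by -0.99, mt-Nd5 by -0.85 and mt-Nd1 by -0.57. mt-Co1, at -0.19, and mt-Rnr2, at -0.19, lay close to the median of all genes, and mt-Rnr1 had -0.51. The 7 high protein genes thus differed unequally, as in the larger share of mt-Co1 among the protein counts of microglia.

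Among the tRNA genes, mt-Tn had -2.21 and mt-Tc -2.36 in microglia against astrocytes, while mt-Tp had 0.52. mt-Tp had 14.6 to 18.4 CPM in KO microglia and 14.5 to 20.1 CPM in KO astrocytes, so these groups overlapped, and with library totals in place of TMM factors it had 0.01 and was not called (edgeR adjusted p = 0.918). Other scalings shifted the median of all genes to -0.75 (library totals) and 0.41 (scaling to the 13 protein genes). Under the last of these mt-Co1, mt-Nd1, mt-Rnr1 and mt-Rnr2 were higher in microglia, and the 5 remaining high protein genes were not among those that changed sign. In WT libraries 15 of 18 members were called, all lower in microglia, against 89.5% of 19331 genes called and 47.9% lower; the median was -1.16 over the 7 high protein genes and -0.13 over all genes. RNA integrity numbers ran from 8.9 to 10.0, and with that number as a covariate 7 of the 18 were called in WT and 15 in batch 1. In WT libraries the number was 9.3 to 9.5 in astrocytes and 9.8 to 9.9 in microglia, so it can hardly be told apart from cell type there.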

How the data were processed

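Paired-end reads of 150 bases were made from total RNA (RNeasy) with a NEBNext Ultra kit on an Illumina HiSeq instrument, per the labels' protocols. The sources used here give neither poly(A) selection nor rRNA removal, and no strand setting, mouse build, annotation or rule for reads with several placements. The submitters' processing notes name STAR 2.5.3a, featureCounts, edgeR 3.26.8 and DESeq2, and as the only build hg38, although the gene identifiers are mouse. The deposited table holds whole-number counts per gene, not normalized by the authors; totals are in the report, and a single count is not an independent molecule because small counts were mostly even.

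Symbols and positions came from GENCODE M21 (GRCm38), which held 54079 of the 54146 identifiers, 96.9% of them and all 37 members in the same version. The 37 members, the gene lists and the tests were chosen with earlier results of these data known. Levels are CPM of library totals. Differences came from edgeR 4.0.16 in R 4.3.3 (filterByExpr, TMM factors, robust quasi-likelihood test, Benjamini-Hochberg adjustment over all tested genes, threshold 0.05) with sex as a covariate. Each cell type had 1 fit over its batch 1 libraries, and another with WT; differences between cell types came from a joint fit. Nuclear copies came from BLAST+ 2.17.0 matches between annotated transcripts. All protein and rRNA genes were named, as were the 6 tRNA genes with the highest mean CPM, up to 3 called tRNA genes per comparison, up to 6 called nuclear genes for mitochondrial gene expression with the smallest adjusted p per comparison (examples of these are given), and the 4 copies with the highest mean CPM. The fit was also run on simulated counts with changes set in APOE44 against APOE33 only. Those counts were drawn without the excess of even values, and nothing is concluded from them here. Alternatives were DESeq2 1.42.0, other scalings, no filter, no sex term, a RIN covariate, a replicate block, halved counts, each library left out and, chosen after seeing the data, the 6 libraries left out or given a term. No pair of the 102 within groups was identical.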

Additional observations from a re-analysis of the deposited data

Results flagged for a closer look

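Of 176 groups of values tested for a library far from its group, 13 were set apart, where chance alone gives about 1 in 20. In WT microglia replicate 4 the mitochondrial rRNA genes took 0.323% of counts, with the nearest library at 0.111%. There mt-Rnr1 was at 714 CPM, with the nearest at 186, and mt-Rnr2 at 2517 CPM, with the nearest at 927. The same library had 1.04% of counts on small nuclear RNA and nuclear rRNA genes, against a WT microglia median of 0.0441%. In APOE33 microglia replicate 3, which is among the 6 libraries with few odd counts, mt-Co2 was at 3.83 CPM (nearest 2.13), mt-Atp6 at 3.54 (nearest 1.65) and mt-Atp8 at 0.995 (nearest 0.337).

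Others were single values. mt-Nd3 was at 0.257 CPM in APOE44 microglia replicate 3, with the nearest library at 0.131. mt-Te was at 0.0390 CPM in WT microglia replicate 5 (nearest 0.0205). In APOE44 astrocyte replicate 6, mt-Rnr2 was low at 783 CPM (nearest 975) and mt-Te at 0.0419 (nearest 0.0779). mt-Nd6 was at 1162 CPM in APOE33 astrocyte replicate 4 (nearest 907), and mt-Tn was low at 0.584 CPM in APOE33 astrocyte replicate 6 (nearest 0.909) and high at 1.35 CPM in KO astrocyte replicate 3 (nearest 1.27). The 3 astrocyte libraries of APOE44 and APOE33 named here are also among those with few odd counts.

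The log2 difference of APOE44 over APOE33 was larger in microglia than in astrocytes by 0.55 for mt-Nd1, 0.57 for mt-Nd2, 0.56 for mt-Nd4 and 0.47 for mt-Cytb, each past the test of that difference in edgeR and none past it without the 6 libraries.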

How the results depend on the processing

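Counts of called members changed as follows. APOE44 against APOE33 microglia (8) gave 3, all lower, after scaling to the 13 protein genes, 5 without the sex term and 1 with the replicate block; leaving out each library gave 6 to 8. KO against APOE33 microglia (3) gave 5 with DESeq2, with library totals and after scaling to the 13, and 1 with the block (2 to 4 without a library). KO against APOE44 microglia (9) gave 4 scaled to the 13 (6 to 9). KO against APOE33 astrocytes (2) gave 5 with DESeq2, 4 with totals and 1 with the block (1 to 3, the 1 without KO replicate 4). KO against APOE44 astrocytes (4) gave 2 scaled to the 13, with the block, without the 6 libraries or with only the compared groups (1 to 5). APOE44 against APOE33 between cell types (4) gave 7 with DESeq2, 0 scaled to the 13, 2 without sex, 2 with the block and 0 without the 6 libraries (2 to 7). KO against APOE33 between cell types (0) gave 1 with totals, scaled to the 13, without sex and without the 6 libraries (0 to 1). Microglia against astrocytes gave 7 in WT with a RIN covariate (15 to 17 without a library) and 18 to 18 in batch 1. Against WT the ranges without a library were 14 to 15, 11 to 12 and 9 to 12 in microglia and 7 to 9, 8 to 10 and 7 to 10 in astrocytes for APOE44, APOE33 and KO, and 0 to 0 for APOE44 against APOE33 astrocytes. The causes were not tested.

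Scaling to the 13 protein genes reversed 16 called values: in APOE44 against APOE33 microglia mt-Rnr2 (-0.088), mt-Co1 (-0.019) and mt-Nd6 (-0.025); in APOE44 against WT microglia mt-Nd1 (-0.12), mt-Nd4 (-0.0066) and mt-Cytb (-0.079); in batch 1 microglia against astrocytes mt-Rnr1 (0.15), mt-Rnr2 (0.47), mt-Nd1 (0.085) and mt-Co1 (0.47); in WT mt-Nd1 (0.29), mt-Co1 (0.41), mt-Co2 (0.39), mt-Atp8 (0.33), mt-Atp6 (0.33) and mt-Co3 (0.036). Of 125 called values, 124 kept their direction and call with DESeq2, 125 with RLE factors, 119 with totals, 117 without sex, 111 with RIN and 108 with the block. Without the 10 highest nuclear genes the protein share was 1.75%, 1.34%, 1.39% and 1.44% in APOE44, APOE33, KO and WT microglia and 3.21% in KO astrocytes; the rRNA share was 0.102%, 0.0823% and 0.0704% in APOE44, APOE33 and KO microglia; the tRNA share was 0.00203%, 0.00187%, 0.00197% and 0.003175% in APOE44, APOE33, KO and WT microglia. The labels do not say whether a shared replicate number marks a shared animal, and the numbers were not taken as pairs: same-numbered libraries of different groups correlated at -0.299 to 0.16, 8 of 22 microglia correlated best with the astrocytes of their own number, and the sex label was the same in 22 of 22 such pairs. With the replicate block the member median of APOE44 over APOE33 microglia was 0.24.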
